A study of Mus musculus with 8 samples.

Results

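H3K36me3 was described along the gene bodies of 10 imprinted genes, Igf2r, Grb10, H13, Meg3, Peg3, Plagl1, Impact, Mest, Snrpn and Commd1, out of 55413 genes in the annotation. They were taken by name, and each gene body was the longest transcript in GENCODE M21 on mm10, except for the noncoding Meg3, for which the whole gene was used. All cells were i4F MEFs, mouse embryonic fibroblasts with a doxycycline-inducible cassette of OCT4, SOX2, KLF4 and MYC (OSKM), from 1 embryo of embryonic day 13.5 that the labels call Clone 1, so the controls carried the cassette too. They were kept for 72 h in iPSC media in 4 conditions: untreated (MEF), with vitamin B12 at 2 µM (MEF B12), with the factors induced by doxycycline (OSKM), and with both (OSKM B12). The labels give the doxycycline dose as 1 µg/ml and the methods of the study as 1 mg/ml. The extraction text names the antibody H3K3me3, whereas the sample label is H3K36m3. There was 1 H3K36me3 library and 1 input library per condition, so the differences could not be checked across replicates and carry no p-values. Cells with more or less of the mark and a changed share of marked cells cannot be told apart.

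An imprinted gene is expressed mainly from the maternal or the paternal copy, and the choice is kept by DNA methylation that differs between the copies at short control regions, many of which are promoters. H3K36me3 is laid down by SETD2 behind elongating RNA polymerase II, so it fills the bodies of transcribed genes, and DNA methyltransferases of the DNMT3 family bind it. Several control regions methylated in the oocyte lie inside longer transcription units, and transcription through them goes together with H3K36me3 and DNA methylation. DNA methylation was not measured in these libraries. The peaks carry no information on the strand or the parental copy, so the marked and the silent copy, and a gene and its antisense partner, cannot be told apart.

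Starts nested in the members are where these features meet, and 5 of them are shown, on the plus strand and with an entry in the promoter table. These are the principal starts of Mest and Plagl1 (those of the transcript with the longest spliced length), the retrogenes Zrsr1 (in Commd1) and Mcts2 (in H13), and Airn, the antisense RNA that starts in Igf2r. The bases up to the first annotated exon are from the RefSeq promoter table for GRCm38.p6, which holds 9 of the 10 members. For Plagl1, whose other transcripts start earlier, the stretch ends 97 bases before the start used here, and for the other 4 it ends at the start. All 5 lie in introns of the longest transcript, intron 1 of Mest, intron 3 of Plagl1, intron 1 of Commd1, intron 2 of Igf2r and intron 4 of H13. Capitals mark TGCCGC or its reverse complement GCGGCA, the letters that ZFP57, a zinc finger protein that keeps imprints, binds when methylated.
Mest, chr6:30737800-30738049: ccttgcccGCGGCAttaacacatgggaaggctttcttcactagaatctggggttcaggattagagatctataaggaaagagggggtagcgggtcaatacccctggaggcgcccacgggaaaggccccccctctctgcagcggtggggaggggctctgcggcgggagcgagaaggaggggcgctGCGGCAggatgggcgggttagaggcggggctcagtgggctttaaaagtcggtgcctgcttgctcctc
Plagl1, chr10:13090582-13090690: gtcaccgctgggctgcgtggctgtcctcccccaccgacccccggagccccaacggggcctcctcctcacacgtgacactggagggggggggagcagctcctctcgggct
Zrsr1, chr11:22971755-22972004: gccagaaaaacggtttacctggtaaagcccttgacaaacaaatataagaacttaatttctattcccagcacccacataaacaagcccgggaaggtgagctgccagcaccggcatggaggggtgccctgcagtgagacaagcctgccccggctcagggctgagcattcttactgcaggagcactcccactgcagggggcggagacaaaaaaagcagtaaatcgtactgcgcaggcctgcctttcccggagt
Airn, chr17:12741061-12741310: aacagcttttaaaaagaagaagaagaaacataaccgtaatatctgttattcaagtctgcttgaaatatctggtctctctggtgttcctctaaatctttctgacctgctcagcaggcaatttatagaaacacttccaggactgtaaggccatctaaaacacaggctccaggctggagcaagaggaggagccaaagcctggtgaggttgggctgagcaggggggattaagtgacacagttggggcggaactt
Mcts2, chr2:152686898-152687034: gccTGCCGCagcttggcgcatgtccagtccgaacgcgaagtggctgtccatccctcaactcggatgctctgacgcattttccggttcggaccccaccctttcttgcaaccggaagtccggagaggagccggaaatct
The motif occurred 2 times before Mest and 1 time before Mcts2, and it was in neither strand of the Plagl1, Zrsr1 and Airn stretches. Among the 32851 promoters of the table it was found in 8.68% over the same 250 bases as for Mest, Zrsr1 and Airn, in 4.22% over the 137 bases of Mcts2 and in 3.26% over the 109 bases of Plagl1. CpG dinucleotides numbered 14 in the Mest stretch against a median of 6 over all promoters, 12 in Mcts2 against 3, 7 in Plagl1 against 2, 8 in Zrsr1 against 6 and 2 in Airn against 6. The matches describe these letters only.

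The OSKM library stood apart from the other 3 before any gene was chosen. Its peaks covered 92.8 Mb of the genome, against 154 Mb in MEF and 166 Mb in both MEF B12 and OSKM B12, although it had the most H3K36me3 tags (33399267, with 29046913 to 32582688 in the others). The covered share is the percentage of gene body bases inside a peak, and the density is the pileup per 1000000 tags summed over those bases and divided by the length of the body. Among 8801 marked genes, which are protein-coding genes with at least 4 exons and at least 10% covered in at least 1 library, the median density was 0.283 in MEF and 0.338 in MEF B12, against 0.140 in OSKM and 0.354 in OSKM B12. All 10 fibroblast markers were covered over at least 10% in at least 1 library, including Col1a1, Col1a2 and Pdgfra, whereas the 5 epithelial and 6 pluripotency markers were not. The fibroblast marker S100a4 was covered in MEF B12 only, over 14.8%. Of the 11 endothelial, blood and neural markers, Tek, Csf1r and Tubb3 reached 10%. Tubb3, at 25.1% in MEF, had no peak in OSKM, whereas Tek, an endothelial receptor, was covered over 2.84% in MEF, 7.85% in OSKM and 26.6% in OSKM B12. Pecam1, Cdh5 and Ptprc had no peak in any library. Their part in the results was not tested.

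Of the members, 7, namely Igf2r, Grb10, H13, Meg3, Peg3, Plagl1 and Impact, carried H3K36me3 over at least 10% of the body in at least 1 library, and Mest, Commd1 and Snrpn stayed under 10% in all 4. All but Meg3, which is not protein-coding, were also among the marked genes. The median covered share of the 10 members was 44.6% in MEF and 45.3% in MEF B12, against 18.3% in OSKM and 46.4% in OSKM B12, beside medians of 50.0%, 53.7%, 30.0% and 54.2% over the marked genes. There were 72 peaks in the members in MEF and 71 in MEF B12, against 84 in OSKM and 76 in OSKM B12, over 206441, 224992, 121323 and 219258 bases. Within the members OSKM therefore held the most peaks and the fewest covered bases. Over the genome it had the fewest peaks, 65473 against 67184 in MEF, 66968 in MEF B12 and 69420 in OSKM B12. Grb10, Plagl1, Commd1, Mest and Snrpn also had fewer peaks in OSKM than in MEF.

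**Figure D1:**
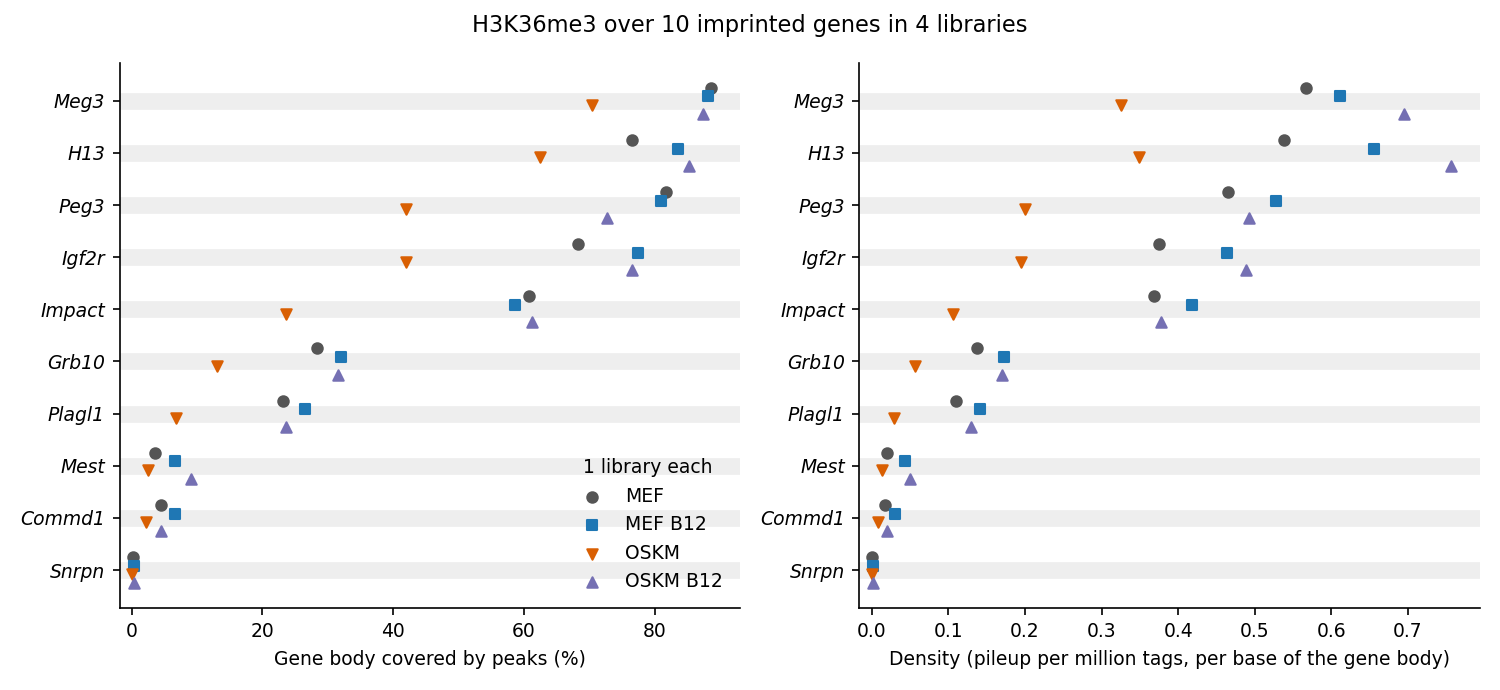
Covered share of the gene body (left, percent) and H3K36me3 density (right, pileup per 1000000 tags per base of the body) of the 10 imprinted genes, with 1 point per library. The OSKM points lie to the left of the other 3 for all 10 genes in both panels, and Mest, Commd1 and Snrpn lie below 10% in every library.

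Igf2r and Grb10 act on growth factor signalling. Igf2r, which encodes the receptor that carries IGF2 and mannose 6-phosphate tagged proteins to the lysosome, spans 87259 bases and 48 exons on the minus strand of chromosome 17 (12682406 to 12769664). Peaks covered 68.2% of it in MEF and 77.5% in MEF B12, against 42.0% in OSKM and 76.5% in OSKM B12. The density was 0.375, 0.464, 0.194 and 0.488 in the same order, so only OSKM stood well below the others. Peaks touched 45 exons in MEF and 33 in OSKM, and the last 20% of the body stayed covered over 91.0% in OSKM, while the first 20% was covered over 39.0% in MEF and 4.87% in OSKM. The antisense gene Airn shares the first 28354 bases of Igf2r, 32.5% of the body, so part of the signal near its start may be counted for either gene. Over the rest of Igf2r the covered share was 82.1% in MEF and 57.3% in OSKM.

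Grb10 encodes an adaptor that binds the insulin and IGF1 receptors and limits their signalling. It spans 106894 bases on the minus strand of chromosome 11 (11930508 to 12037401). Its covered share was 28.4% in MEF and 31.9% in MEF B12, against 12.98% in OSKM and 31.5% in OSKM B12, with densities of 0.137, 0.173, 0.0561 and 0.170. The signal lay in the 3′ part, with 87.4% of the last 20% of the body covered in MEF against 7.43% of the first 20%, and 40.2% against 0% in OSKM. The first covered base in OSKM was 53242 bases after the start, compared with 8750 in MEF.

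Peg3 and Plagl1 encode zinc finger proteins and are expressed from the paternal copy. Peg3 spans 26530 bases on the minus strand of chromosome 7 (6703892 to 6730421) and was covered over 81.7% in MEF and 81.0% in MEF B12, against 42.0% in OSKM and 72.8% in OSKM B12. Its densities were 0.465, 0.528, 0.20 and 0.492. In MEF 3 peaks made up its domain, the longest of 15814 bases, and in OSKM 10 peaks did, the longest of 3061 bases. OSKM B12 was intermediate in number, with 5 peaks and a longest of 8754 bases.

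Plagl1, a regulator of the cell cycle, spans 66851 bases on the plus strand of chromosome 10 (13060504 to 13127354). Its covered share was 23.2% in MEF and 26.5% in MEF B12, against 6.74% in OSKM and 23.6% in OSKM B12, with densities of 0.110, 0.141, 0.0298 and 0.130. No peak lay in the first 20% of the body in any library, and 73.2% of the last 20% was covered in MEF and 23.1% in OSKM. Of its 25 annotated transcripts 22 start about 30284 bases into this body, and no base before that start was covered in any library.

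Impact encodes a protein that restrains GCN2, a kinase of the amino acid starvation response, and is expressed from the paternal copy. It spans 28461 bases on chromosome 18. Its covered share was 60.8% in MEF and 58.7% in MEF B12, against 23.6% in OSKM and 61.3% in OSKM B12, with densities of 0.369, 0.418, 0.106 and 0.377. Peaks touched 4 of its 6 exons in MEF, MEF B12 and OSKM B12, and none in OSKM. In OSKM 10 peaks remained, the longest of 1308 bases, where MEF had 4 with a longest of 8329 bases inside the body. Over the transcript with the longest spliced length, which starts 16071 bases later and spans 21028 bases, the covered share was 80.7%, 80.5%, 51.4% and 78.1%, so the OSKM value depends on which transcript is taken.

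Meg3 is a long noncoding RNA expressed from the maternal copy of the Dlk1-Dio3 cluster. It spans 30726 bases on the plus strand of chromosome 12 (109541001 to 109571726) and had the highest covered share of the members in all 4 libraries, 88.6% in MEF and 88.2% in MEF B12, against 70.5% in OSKM and 87.4% in OSKM B12. The densities were 0.566, 0.612, 0.325 and 0.695. In MEF 1 peak of 51277 bases began 3498 bases after the start and ran past the end of the gene. In OSKM the same span held 7 peaks within Meg3, and in OSKM B12 it held 2. The density of Meg3 was higher than that of 87.6% of the marked genes in MEF and of 84.4% in OSKM.

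H13 encodes the signal peptide peptidase, a membrane protease, and hosts the paternally expressed retrogene Mcts2. It spans 39210 bases on the plus strand of chromosome 2 (152669461 to 152708670). Its covered share was 76.6% in MEF and 83.6% in MEF B12, against 62.5% in OSKM and 85.2% in OSKM B12, with densities of 0.538, 0.655, 0.349 and 0.756. H13 kept the largest part of its covered share in OSKM among the members. The densities of H13 and Meg3 were the 2 highest in every library, with Meg3 first in MEF and H13 first in the other 3.

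Commd1, a gene of copper handling and NF-κB control that hosts the retrogene Zrsr1, spans 86247 bases on the minus strand of chromosome 11 (22896136 to 22982382) and was covered over 4.52% in MEF and 6.67% in MEF B12, against 2.13% in OSKM and 4.44% in OSKM B12. Each library had a peak between 2397 and 6079 bases after the start, and the others were short and scattered. The annotated gene Gm28048 overlaps 99.7% of this body on the same strand, so the 2 cannot be separated.

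Mest encodes a membrane protein of the hydrolase fold and is expressed from the paternal copy. The transcript with the longest span covers 19028 bases on chromosome 6 (30723547 to 30742574) and ends before the 3′ end of the gene. Over it the covered share was 3.56% in MEF and 6.57% in MEF B12, against 2.52% in OSKM and 9.09% in OSKM B12. Over the transcript with the longest spliced length, 10413 bases from 30738053 to 30748465, it was 63.1%, 68.6%, 32.5% and 58.6%, with densities of 0.359, 0.450, 0.153 and 0.368. The first peak after the principal start lay 3102 bases from it in MEF and 3275 in MEF B12, against 4045 in OSKM and 2796 in OSKM B12, so the covered part of Mest was toward its 3′ end.

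Snrpn encodes a protein of the spliceosome and is expressed from the paternal copy, most strongly in brain. Its body of 157718 bases on chromosome 7 (59982502 to 60140219) held 1 peak of 408 bases in MEF and 1 of 440 bases in MEF B12 and 1 of 527 bases in OSKM B12, with none in OSKM, each at a different place. The covered share was 0.161%, 0.279%, 0% and 0.334%. Each of these peaks lay in bases that the annotated gene Gm38393 shares on the same strand. With the bases of other genes left out, no base of Snrpn was covered in any library. Enrichment over Snrpn was thus hardly detectable at this depth, and no fold is given for OSKM.

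The domains began well after the start of most genes. In MEF the first covered base lay 3498 bases after the start of Meg3, 4026 after that of Peg3, 3649 after that of Impact, 2808 after that of H13, 8750 after that of Grb10 and 45465 after that of Plagl1. Igf2r was covered from its first base in MEF, MEF B12 and OSKM B12, and from 5293 bases on in OSKM. The last 20% of the body was covered more than the first 20% for all 7 members in all 4 libraries. In OSKM the covered share of the last 20% ranged from 23.1% in Plagl1 to 91.6% in Meg3, and that of the first 20% from 0% to 34.9%.

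**Figure D2:**
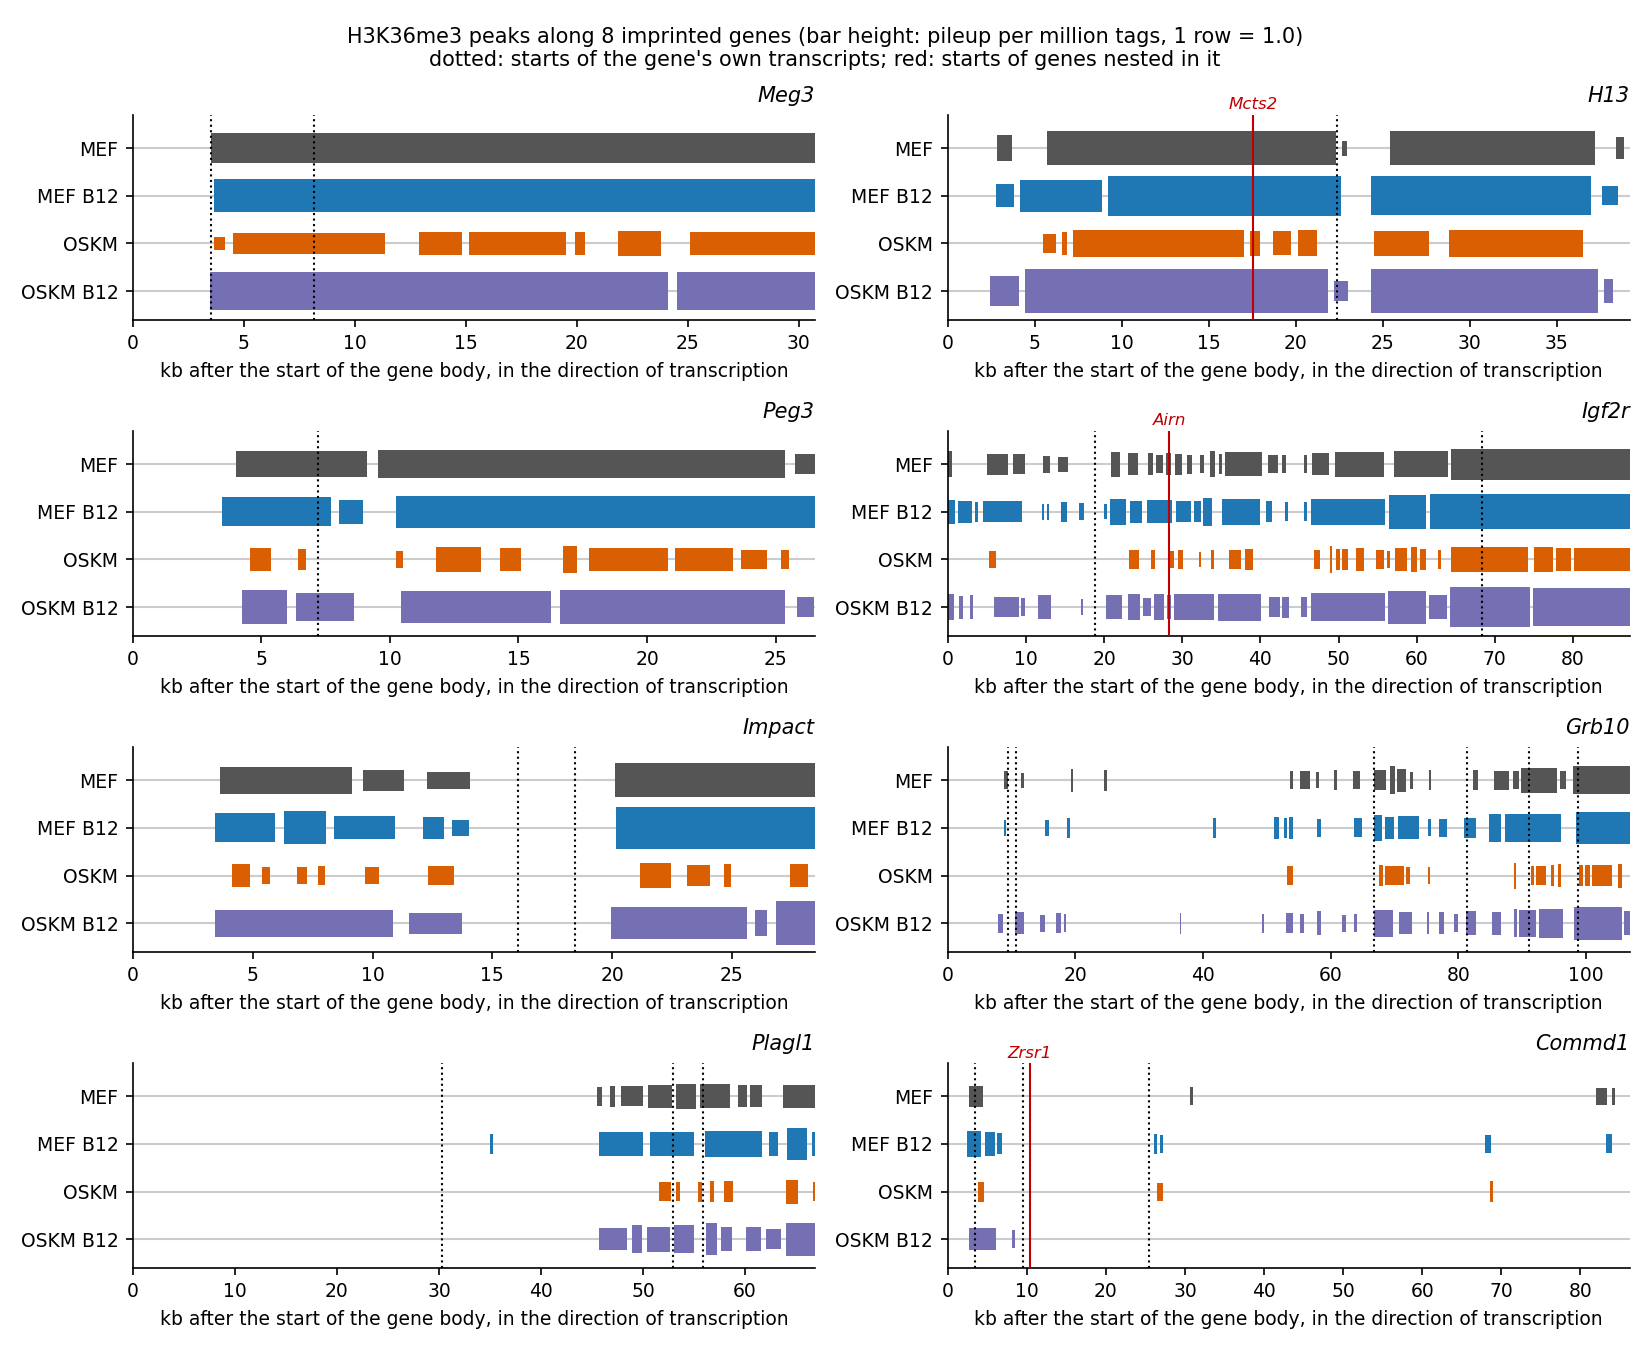
Peaks along 8 of the imprinted genes, with distance from the start of the gene body in kb in the direction of transcription on the horizontal axis and 1 row per library. Bar height is the pileup per 1000000 tags of the peak, drawn so that the spacing of rows is 1 unit, dotted lines are starts of the gene's own transcripts and red lines are starts of nested genes. In OSKM the widest bar of each gene is narrower than in MEF, and the bars are lower on average except in Commd1. There are more bars in OSKM than in MEF in Meg3, H13, Peg3, Impact and Igf2r, and fewer in Grb10, Plagl1 and Commd1. The stretch around both inner starts of Impact has no peak in any library.

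The members contained 29 nested starts, the starts of 3 other imprinted genes and those of their own transcripts at least 2 kb inside the body, with starts within 1 kb merged. Within 1 kb of the start, no base was covered in any library for 9 of them, and all bases were covered in all 4 libraries for 2, 1 in Igf2r and 1 in Meg3. The median covered share of these windows was 35.9% in MEF and 43.0% in MEF B12, against 0% in OSKM and 50.8% in OSKM B12, and 11, 11, 16 and 10 of the windows had no covered base. Over whole bodies of the marked genes the median was also lower in OSKM, 30.0% against 50.0% in MEF. Inner starts of other genes were not counted, so the OSKM values are not read as a trait of these starts.

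Of the 9 windows without a covered base, 3 had peaks of the same member on both sides in every library. The principal start of Impact, in its intron 1, was one. The nearest peak ended 2013 bases before it and the next began 4061 bases after it in MEF, with 2038 and 4099 bases in MEF B12, 2686 and 5080 in OSKM, and 2353 and 3902 in OSKM B12. The gap was thus present at about the same place in all 4 conditions, including the 3 in which both flanks were filled. The second was the other inner start of Impact, 18446 bases after the first base of the body, and the third was a transcript start 18864 bases into Igf2r. The remaining 6, in Mest, Plagl1, Snrpn and Commd1, lay in stretches with few or no peaks in at least 1 library.

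The nested imprinted genes differed from each other. The Mcts2 start, 17574 bases into H13, was fully covered within 1 kb in MEF, MEF B12 and OSKM B12, and over 50.8% in OSKM. The start of Airn, 28353 bases into Igf2r, was covered over 51.5% in MEF and 74.2% in MEF B12, against 42.5% in OSKM and 61.6% in OSKM B12. Zrsr1 in Commd1 had no covered base within 1 kb in any library.

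**Figure D3:**
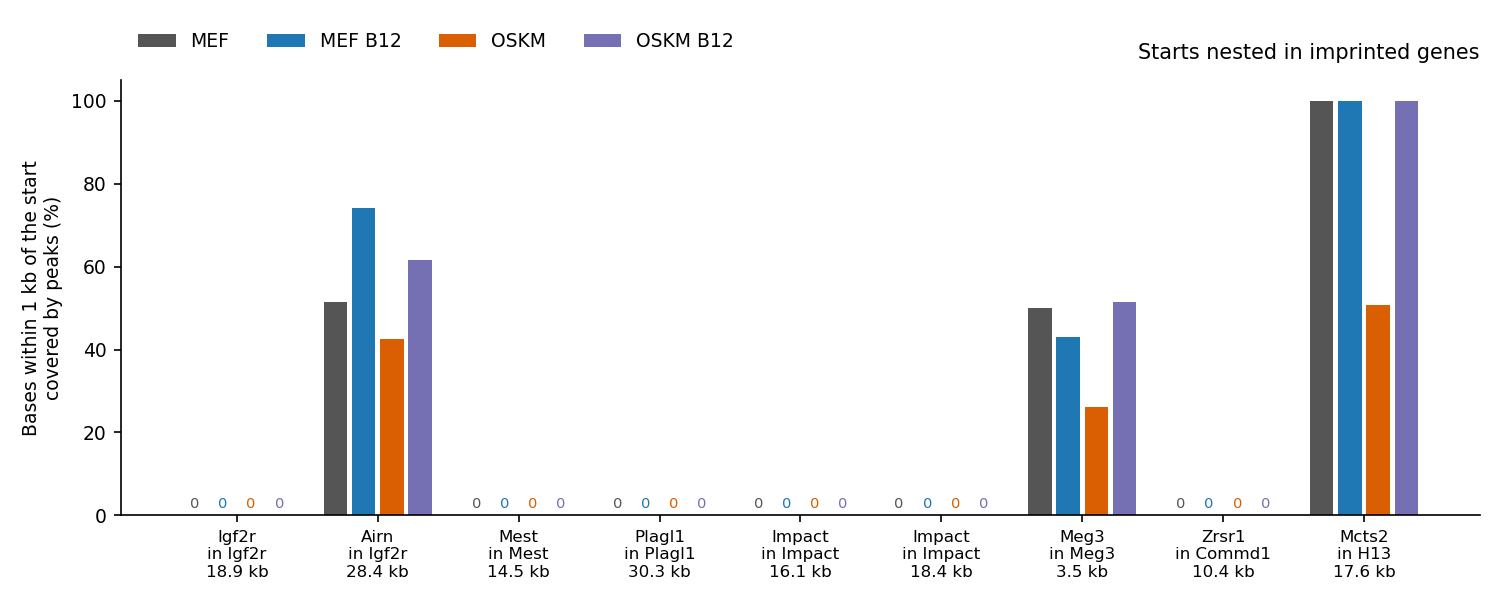
Percentage of the bases within 1 kb of 9 nested starts that lay in a peak, with 1 bar per library and a 0 where no base was covered. The label gives the gene that starts, the member it lies in and the distance in kb from the start of that member's body. The Mcts2 start is at 100% in 3 libraries and 50.8% in OSKM, and the windows in Impact, Plagl1, Mest and Commd1 and that of the transcript of Igf2r itself are at 0 in all 4 libraries.

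The first comparison asked how H3K36me3 over these genes changed when the factors were induced. All 10 members had a lower density in OSKM than in MEF, and 6 were at least 1.5 times lower on the scale log2(density + 0.05), namely Impact, Peg3, Plagl1, Grb10, Igf2r and Meg3. Of the marked genes, 68.8% were lower by as much, so the count over all 10 members is near the background. Mest, Commd1 and Snrpn would not pass the coverage filter of the marked genes, and all 6 are among the 7 members that reach 10%. The median log2 change was -0.76 over the 10 members, -0.82 over these 7 and -0.71 over the marked genes. Whether the members differ from the marked genes was not tested. Impact had the largest fall on this scale, -1.43 (95% counting interval -1.55 to -1.30), and 3.34% of the marked genes fell further. Peg3 followed with -1.04 (-1.16 to -0.93) and Plagl1 with -1.01 (-1.10 to -0.91). Without the pseudocount, the density relative to MEF was 0.270 in Plagl1, below 0.287 in Impact. Grb10 changed by -0.82 (-0.90 to -0.74), Igf2r by -0.80 (-0.86 to -0.73), Meg3 by -0.72 (-0.81 to -0.62) and H13 by -0.56 (-0.64 to -0.48). H13 thus stayed inside the 1.5-fold limit, and so did Commd1 and Mest, whose low levels keep the change small on this scale. Over its longest span the interval of Mest, -0.15 (-0.32 to 0.02), included 0. With the transcript of longest spliced length in place of the longest span, the fall of Impact was -0.98, smaller than those of Plagl1 (-1.17), Peg3 (-1.04) and Mest (-1.01). Relative to the median of the marked genes, Impact alone remained 1.5 times lower over its longest span, and against the same median no member did with the other transcript. The intervals count estimated tags only and leave out differences between cultures and immunoprecipitations.

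The second comparison asked what B12 did in cells with the factors induced. All 10 members had a higher density in OSKM B12 than in OSKM, and 8, all but Snrpn and Commd1, were at least 1.5 times higher. Of the marked genes, 95.2% were. The median log2 change was 1.03 over the members, 1.12 over the 7 covered over at least 10% and 0.98 over the marked genes. Impact again changed most on this scale, by 1.46 (1.33 to 1.58), and 93.5% of the marked genes rose less. Without the pseudocount, the density relative to OSKM was 4.36 in Plagl1 and 3.78 in Mest, above 3.57 in Impact. With the transcript of longest spliced length Impact changed by 1.13, less than Plagl1 (1.36) and Igf2r (1.14). The other members covered over 10% ranged from 0.99 in Meg3 to 1.17 in Plagl1. The covered share of Impact rose by 37.6 percentage points, that of Igf2r by 34.5 and that of Peg3 by 30.7. No member was 1.5 times higher once the change of the marked genes was taken off.

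In MEF without induction, B12 went with a higher density in all 10 members (9 with fold enrichment in place of pileup, and 9 without division by tags), but 0 were at least 1.5 times higher, beside 3.39% of the marked genes. The median log2 change was 0.25 over the members and 0.21 over the marked genes. The changes of the 7 covered members ranged from 0.10 (0.02 to 0.19) in Meg3 to 0.28 (0.22 to 0.33) in Igf2r. The covered share moved less and not in 1 direction: it was 9.21 percentage points higher in Igf2r and 7.03 in H13, and it changed by -0.71 in Peg3, -2.06 in Impact and -0.46 in Meg3.

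OSKM B12 was also set against MEF, which leaves the OSKM library out. Of the members, 0 were at least 1.5 times higher, beside 6.85% of the marked genes, and the median log2 change was 0.20 against 0.26. H13 was higher by 0.45 (0.38 to 0.53) and Igf2r by 0.34 (0.29 to 0.40). The intervals of Impact, 0.03 (-0.08 to 0.13), Peg3, 0.08 (-0.02 to 0.17), and Commd1, 0.05 (-0.03 to 0.14), included 0. The covered share of Peg3 changed by -8.94 percentage points from MEF. The comparisons share the MEF, OSKM and OSKM B12 libraries, so their values are not independent.

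**Figure D4:**
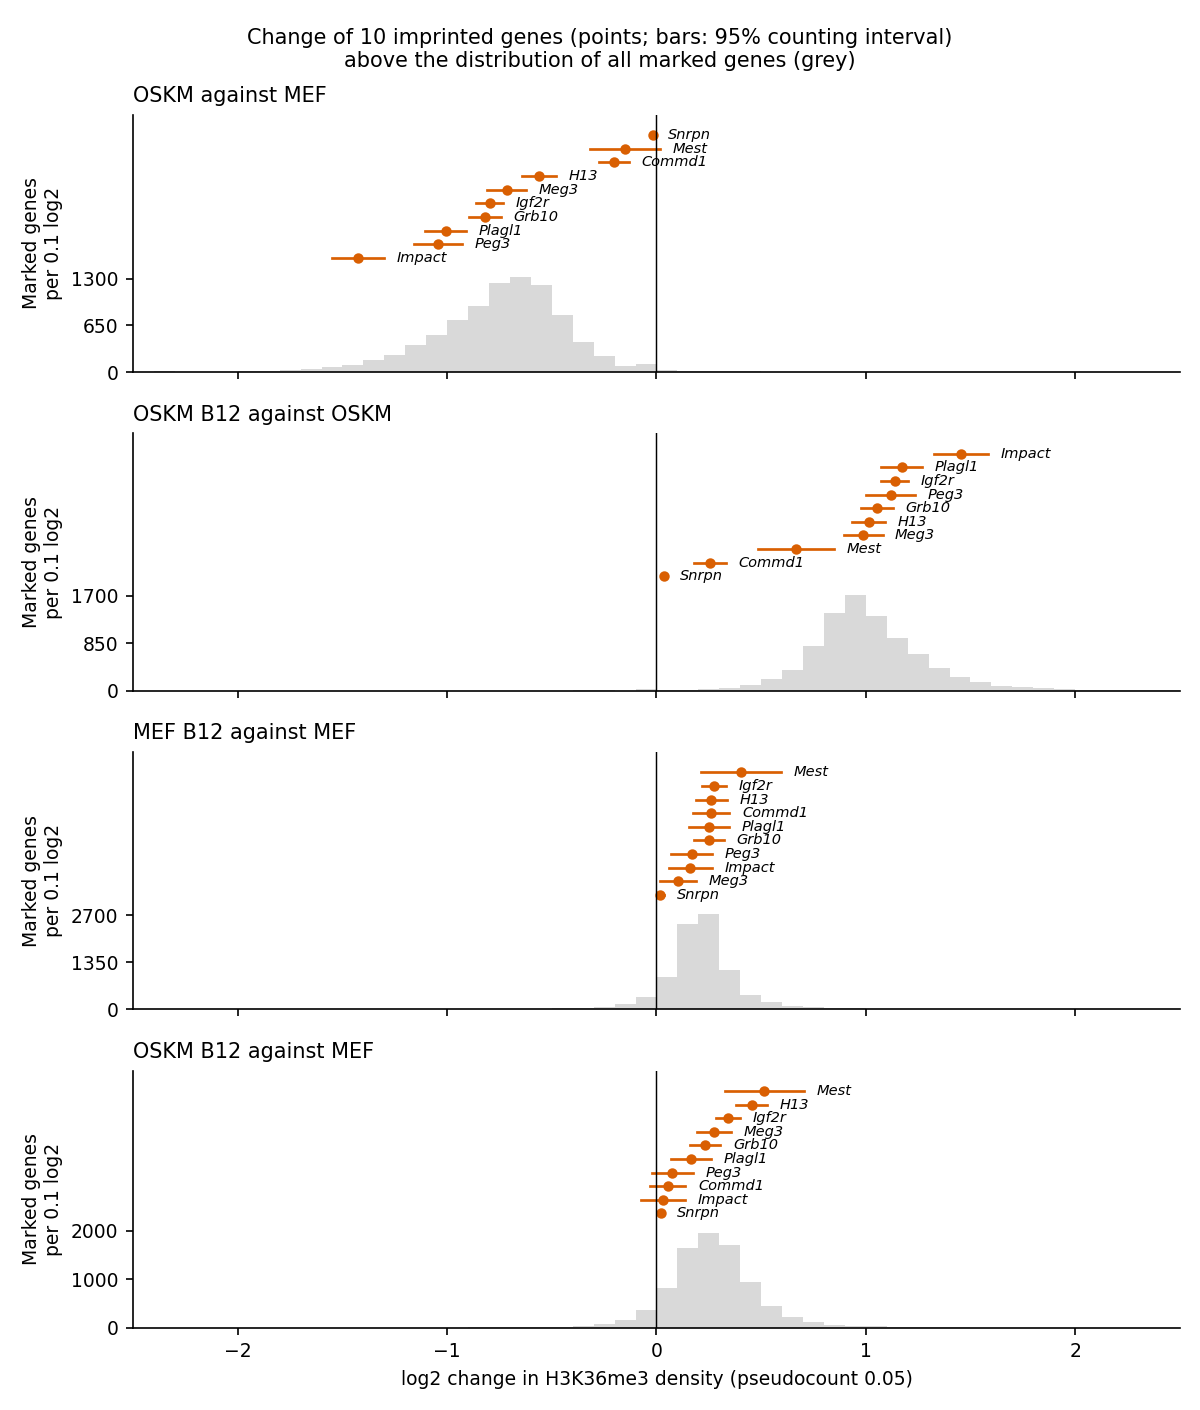
Log2 change in density of the 10 imprinted genes (points, with bars for the 95% counting interval, drawn above the histogram in order of value) over the number of marked genes per 0.1 log2 (grey), for the 4 comparisons. The members covered over 10% lie within the grey distribution in each panel, with Impact toward its edge in both panels that involve OSKM, at -1.43 and 1.46.

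Where the peaks were lost and regained was followed base by base. Of the bases covered in MEF, those also covered in OSKM made up 79.5% in Meg3, 77.8% in H13, 58.7% in Igf2r, 50.6% in Peg3, 38.9% in Impact, 37.9% in Grb10 and 26.1% in Plagl1. Bases covered in OSKM but not in MEF numbered 0 in Impact and Meg3, 191 in Peg3, 465 in Plagl1, 1131 in H13, 1670 in Igf2r and 2378 in Grb10. Of the bases covered in MEF but not in OSKM, OSKM B12 covered 92.8% in Meg3, 87.9% in H13, 87.5% in Igf2r, 86.0% in Impact, 79.2% in Peg3, 73.7% in Plagl1 and 64.7% in Grb10. Of the bases covered in OSKM B12, those outside MEF peaks made up 0.115% in Meg3, 0.161% in Peg3, 9.29% in Impact, 12.5% in H13, 16.7% in Igf2r, 23.0% in Plagl1 and 33.0% in Grb10. The OSKM B12 peaks thus lay almost wholly at MEF positions in Meg3 and Peg3, and less so in Grb10 and Plagl1. MEF peaks already covered 88.6% of Meg3 and 81.7% of Peg3, against 28.4% of Grb10 and 23.2% of Plagl1. This order is therefore not read as a difference between genes.

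Both the extent and the height of the peaks differed. Over the bases shared by the peaks of all 4 libraries, the pileup per 1000000 tags of OSKM relative to MEF was 0.72 in Meg3, 0.74 in Impact, 0.78 in Igf2r and H13, 0.82 in Grb10, 0.83 in Peg3 and 0.90 in Plagl1. The covered share of OSKM relative to MEF was 0.80, 0.39, 0.61, 0.82, 0.46, 0.51 and 0.29 for Meg3, Impact, Igf2r, H13, Grb10, Peg3 and Plagl1. Bases that lay in peaks of all 4 libraries made up 5.52% of the body of Plagl1 and 70.5% of that of Meg3, and height could be compared only where OSKM passed the calling threshold, so the order of these ratios is not read as a difference between genes. In OSKM B12 the height over shared bases was 1.36 times that of OSKM in Plagl1 and up to 1.72 times in Meg3. The pileup is 1 mean per peak, so it does not resolve height within a peak.

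The other genes of the same clusters were read from a list of 68 imprinted genes, 67 of which were found, with 26 covered over at least 10% in at least 1 library. Of these, 17 were at least 1.5 times lower in OSKM than in MEF and 25 at least 1.5 times higher in OSKM B12 than in OSKM, beside 68.8% and 95.2% of the marked genes. The median log2 changes were -0.71 and 1.10, with -0.71 and 0.98 over the marked genes, so these counts are near the background. Beside Meg3, the noncoding RNAs Rian and Mirg of the same cluster were covered over 87.9% and 96.5% in MEF and over 49.3% and 92.0% in OSKM. The protein-coding Rtl1, which the MEF peak over Meg3 also reaches, was covered over 78.4% in MEF and 56.7% in OSKM. Dlk1, a paternally expressed signalling protein, was covered over 16.8% in MEF and 26.0% in MEF B12, against 12.3% in OSKM and 48.1% in OSKM B12. It was thus higher in OSKM B12 than in any other library, with a log2 change of 1.13 against MEF. Dlk1 was not alone in this. Of the 26 covered genes of the list, 7 were at least 1.5 times higher in OSKM B12 than in MEF, beside 6.85% of the marked genes. The median log2 change was 0.31, against 0.26 over the marked genes. Tssc4 (1.73), Cdkn1c (1.45) and Zrsr1 (1.14) changed more than Dlk1, and Ampd3 (1.08), Nnat (0.79) and H19 (0.72) less.

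Zim1, the neighbour of Peg3, was covered over 62.3% in MEF and 53.8% in MEF B12, against 21.5% in OSKM and 49.9% in OSKM B12. Its log2 change from MEF to OSKM, -1.29, was among the 3 largest falls of the list, with Mcts2 (-1.63) and Cdkn1c (-1.39). Cdkn1c encodes an inhibitor of cyclin-dependent kinases. Its covered share was 21.1% in MEF and 16.4% in MEF B12, against 0% in OSKM and 71.0% in OSKM B12. Mcts2 is 912 bases long and lies inside H13, whose peaks it shares. Ube3a, at the far end of the Snrpn cluster, was covered over 15.6% in MEF and 3.00% in OSKM, although Snrpn itself had almost no peak. Mcts2, Mirg and Cd81 had the highest densities of the list in MEF, 0.716, 0.652 and 0.549. Of the covered genes of the list, Tssc4, Zrsr1 and Nnat had the highest log2 changes from MEF to OSKM, 0.21, 0 and -0.08. Tssc4 had no peak in MEF and was covered over 2.11% in OSKM. Zrsr1 had no peak in MEF or OSKM, so its value of 0 stands for absent signal and not for a stable level. It was covered only in the B12 libraries, over 14.8% in MEF B12 and 14.8% in OSKM B12, but mostly at different bases. The peak wholly inside it lay at 22975530 to 22976097 in MEF B12 and at 22973833 to 22974304 in OSKM B12. The rest was the edge of a peak that ran past its end toward the start of Commd1. The equal shares are therefore not read as the same mark in both libraries.

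Of 17 genes for factors that set or keep imprints, 15 were covered over at least 10% in at least 1 library, and 13 of them were at least 1.5 times lower in OSKM than in MEF and 14 at least 1.5 times higher in OSKM B12 than in OSKM. The same background of 68.8% and 95.2% applies. The median log2 change was -0.83 in the first comparison and 1.05 in the second, beside -0.71 and 0.98 over the marked genes. Ehmt2, a H3K9 methyltransferase, had the highest density of these genes, 0.958 in MEF and 0.618 in OSKM. Dnmt1, the maintenance DNA methyltransferase, followed with 0.562 and 0.382, and Zfp445, which encodes a zinc finger protein that binds imprinting control regions, with 0.550 and 0.298. The largest falls were those of Kdm1b (-1.35), Zfp57 (-1.13) and Smchd1 (-1.11). The smallest on this scale was that of Dnmt3b, -0.35, with Dnmt1 at -0.50 and Ehmt2 at -0.59. Dnmt3b had densities of only 0.0451 in MEF and 0.0247 in OSKM, so the pseudocount keeps its change small. These are values of H3K36me3 over the genes, and neither transcripts nor proteins were measured here.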

How the data were processed

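ChIP–seq was analysed for 4 H3K36me3 libraries, each with its own input, for the MEF, MEF B12, OSKM and OSKM B12 conditions. The authors aligned reads of 75 bases to mm10 with Bowtie version 0.12.9 and called broad peaks in each library separately, never pooled, with MACS2 version 2.2.6 (q-value cut-offs 0.05 and 0.1). The deposited pileup is a signal: fragments, extended to their estimated length, averaged over each peak. Fold enrichment, also deposited, is the ratio of that pileup to the input around it. The deposited significance values, of p and of q, are on a −log10 scale. Peak positions in the deposited files count from 1. From these, the following were computed with Python 3.11 and numpy 2.4.6: the covered share of each gene body, the density (pileup per 1000000 tags, summed over peak bases and divided by the length of the body) and log2 changes with a pseudocount of 0.05, which makes changes of weakly marked genes small. A change of 1.5 times was counted. Peaks on unplaced scaffolds were left out.

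H3K36me3 tags numbered between 29046913 and 33399267, and inputs between 34524486 and 36150875. A gene without a peak is one without enrichment detectable at this depth. Intervals cover counting error at 95% and not the variation between cultures. Read coverage outside peaks was not used here. Peaks are called against q-values, so the covered share moves with enrichment over input as well as with the mark.

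The members, the gene lists, the markers and the rule for named genes (all members, listed genes in the same clusters, and the 3 highest, 3 largest falls and 3 largest rises of each list) were chosen with earlier results of these data known. Interval arithmetic and the fold computation were tested on simulated data. Alternatives changed the peak threshold, the scaling, the pseudocount, the fold, the gene model, the treatment of overlapping genes and of gaps, and the window around nested starts.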

Additional observations from a re-analysis of the deposited data

Results flagged for a closer look

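For 3 members the covered share moved in opposite directions with B12 in MEF and in OSKM cells, each from 1 library per condition, so the difference between the 2 effects was not tested. Peg3 changed by -0.71 percentage points in MEF B12 against MEF and by 30.7 in OSKM B12 against OSKM. Impact changed by -2.06 and by 37.6 percentage points. Meg3 changed by -0.46 and by 16.9 percentage points. The falls in MEF are small, and the density of all 3 genes was higher with B12 in both comparisons.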

How the results depend on the processing

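With 1 library per condition, no replicate could be left out. No paired analysis was possible because there was a single H3K36me3 library in every condition. The direction of change was kept by all 10 members under a fold enrichment of at least 2, both other pseudocounts, the whole gene, gaps of at most 1 kb filled and, chosen after seeing the data, the transcript of longest spliced length. In OSKM against MEF, 9 members were lower with the same number of peaks in each library. With the bases of other genes left out 8 were, and at a −log10 q of at least 5 only 5 were. Under these settings 0 were higher, and the remaining members had no covered base in either library. The 6 members at least 1.5 times lower in OSKM than in MEF became 1 relative to the median of marked genes, 2 with a pseudocount of 0.2 and 3 at a fold of 2. The 8 members higher in OSKM B12 than in OSKM became 0 relative to that median and 5 with a pseudocount of 0.2. The 0 members higher in MEF B12 than in MEF became 2 when −log10 q had to reach 5, 1 under a pseudocount of 0.01 and 1 at the smaller of the alternative folds. For OSKM B12 against MEF, 0 became 3, 1 and 3 under the same settings. The other 45 counts under alternatives stayed within 1.5 times. Relative to the median of marked genes, changes took the other sign in 4 of 10 members in OSKM against MEF (H13 became 0.15), 3 in OSKM B12 against OSKM (Mest became -0.31), 4 in MEF B12 against MEF and 6 in OSKM B12 against MEF. With fold enrichment in place of pileup, 1 member in MEF B12 and 2 in OSKM B12 became lower than in MEF, among them Peg3 in OSKM B12 at -0.15, and without division by tags 1 and 2 did. At a −log10 q of at least 5, 1 and 2 did. At a −log10 q of at least 5, no member kept a peak in OSKM, so values there rest on the other libraries alone. With windows of 500 bases or 2 kb around nested starts, 17 and 13 of 29 had no covered base in OSKM, against 13 and 9 in MEF.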
